A study of Mus musculus with 816 samples.

Results

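Mouse microglia kept for 72 h with granulocyte-macrophage colony-stimulating factor (GM-CSF, labelled GMCSF) were compared with microglia kept for the same time without a stimulus. The cultures were chosen by their labels, GMCSF alone at 72 h and None at 72 h, which gave 7 treated and 25 untreated cultures among the 784 cultures of the culture table and the 816 samples of the series. All 32 were primary microglia of neonatal mice with the same source name, Sciencell_May16. A source name is called a lot here, though the headers do not say that it is one. The cells were plated on poly-lysine in 96-well plates and received their stimulus at 0.000005 µg/µl, or none, with a change of medium. Comparison groups were 8 GMCSF and 40 untreated cultures at 24 h, the latter from 3 lots, and 6 cultures given IL13 (0.00005 µg/µl) for 72 h. RNA was read from the 3′ end in pooled, barcoded libraries, and the table gives reads per gene scaled to the same total of mapped reads in every culture (CPM). They are not corrected for transcript length, so levels are compared between cultures and not between genes. These were isolated cells in dishes, and all 72 h results rest on 1 lot of cells.

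GM-CSF is a cytokine that keeps macrophages and granulocytes alive, makes them divide and shapes their state. It binds a receptor made of a specific α chain (Csf2ra) and a β chain (Csf2rb) that is shared with the receptors of IL-3 and IL-5. The kinase JAK2 then activates the transcription factor STAT5, which turns on genes such as Cish and Socs2, whose products feed back on the receptor. In macrophages and microglia in culture the cytokine is known for driving division and features shared with dendritic cells and alveolar macrophages.

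Depth behind the values, read from the smallest steps in each library, was 3.32 to 21.5 M reads in the GMCSF cultures and 1.45 to 14.4 M reads in the untreated ones. Of 10 microglia markers, 8 had a mean above 5 CPM after GMCSF, among them Csf1r and Aif1, while Tmem119 and P2ry12 did not. In the GMCSF cultures the 6 mast cell markers were at 0, and the summed level of 9 lymphocyte markers did not pass 2.24 CPM. The 9 astrocyte markers summed to 6.25 to 39.5 CPM after GMCSF and to 3.50 to 89.4 CPM without it. Gfap was at 0 in every GMCSF culture, but Aldh1l1 and Aldoc had means above 5 CPM. The 9 oligodendrocyte lineage markers summed to 11.4 to 84.1 CPM against 2.77 to 79.5 CPM, with Mbp and Cspg4 above a mean of 5 CPM. The 7 monocyte markers summed to 88.7 to 146 CPM after GMCSF and to 0.998 to 48.9 CPM without it. Fn1 and S100a4 made up that sum, and Ly6c2 and Plac8, which define the type, were at 0. The 7 perivascular macrophage markers summed to 170.35 to 745 CPM after GMCSF (median 504) and to 91.5 to 738 CPM without it (median 253), with Mrc1, Siglec1, Pf4 and Cbr2 above a mean of 5 CPM and Lyve1 at 0 in every GMCSF culture. The 7 endothelial markers summed to 50.5 to 85.3 CPM against 24.4 to 77.1 CPM. Pecam1, Flt1 and Vwf had means above 5 CPM after GMCSF, and Cldn5, Cdh5 and Tek were at 0 in every GMCSF culture. The part of such cells in the results was not tested. In bulk RNA, more cells of a type and more RNA per cell cannot be told apart.

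The position of the wells bears on every result. GMCSF wells lay on plate 1 (3 wells) and plate 2 (4 wells), together with 10 untreated wells, all of them at the edge of the plate. Of the 7 GMCSF wells, 6 were middle wells and 1 (replicate 4, plate 2) was an edge well, which also had the deepest library. The 10 untreated middle wells were all on plate 3, which had no GMCSF, and 5 more untreated edge wells were on plate 4. A second fit therefore took in all 72 h cultures given 1 stimulus or none (26 conditions) with plate and well position as terms, and some of its values are given beside the results. This fit, and comparisons of edge with edge and middle with middle wells, were added after the data were seen.

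After GMCSF, 292 of the 10905 genes tested were higher (2.68%) and 158 were lower (1.45%), together 4.13%, by limma on log2(CPM + 1) with a Benjamini-Hochberg adjusted p below 0.05 and at least a 2-fold difference. Log2 fold changes below are on that scale, which understates changes of low genes. The p-values measure the spread between wells of 1 lot, not between animals. For 55 genes (0.504%) all 7 GMCSF cultures lay above all 25 untreated cultures, and for 7 genes (0.0642%) all lay below. With plate and well position as terms the fit tested 14493 genes, of which 384 were higher (2.65%) and 131 lower (0.904%), together 3.55%. Counts of list members below are to be read beside these shares. A single call in a list is no result about that list.

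Of the 16 genes of the GM-CSF receptor and its signalling proteins, 1 rose and none fell, against 2.68% and 1.45% of all genes tested. The riser was Csf2rb, the shared β chain. Its lowest, median and highest levels were 183, 252 and 333 CPM in the GMCSF cultures and 47.1, 88.2 and 153 CPM in the untreated ones, an order that sets of 3 values below keep. All 7 treated cultures lay above all 25 untreated ones, with a log2 fold change of 1.4998 ± 0.20 (SE; adjusted p = 1.00e-06). Csf2ra, the α chain, measured 406 to 610 CPM against 127 to 544 CPM (log2 fold change 0.34, adjusted p = 0.31). Csf2rb2, a near-identical copy of the β chain with which reads may be shared, measured 50.1 to 200.4 CPM against 30.5 to 203 CPM (-0.28, adjusted p = 0.62). Csf1r, the receptor of the growth factor that microglia depend on, measured 1912 to 3746 CPM against 618 to 5115 CPM (0.13, adjusted p = 0.85).

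Among 20 STAT5 targets and feedback inhibitors, 7 rose (Cish, Socs2, Bcl2a1a, Socs3, Pim1, Bcl2a1d and Bcl2l1) and 1 fell (Bcl6), and the median log2 fold change was 1.07 against 0.03 over all genes tested. Cish, an inhibitor of STAT5 signalling, was at 35.6, 50.6 and 100.4 CPM in the GMCSF cultures and at 0, 0 and 2.37 CPM in the untreated ones. No treated culture came near the untreated range, and the log2 fold change was 5.51 ± 0.31 (adjusted p = 1.98e-16). Socs2, another feedback inhibitor, was at 37.6, 138 and 235 CPM against 0, 2.28 and 28.2 CPM, again without overlap (4.95 ± 0.57, adjusted p = 8.70e-08). Socs3, of the same family, was at 10.2, 24.5 and 41.9 CPM against 0, 2.20 and 17.98 CPM, and here the groups overlapped (2.72 ± 0.50, adjusted p = 3.22e-04). Pim1, a kinase that promotes survival, rose by 1.74 ± 0.34. The anti-apoptotic genes rose as well, by 1.57 for Bcl2l1, 1.70 for Bcl2a1d and 3.78 for Bcl2a1a, while their copy Bcl2a1b measured 0.28 (adjusted p = 0.54). Reads can be shared between the Bcl2a1 copies, so their separate values are uncertain.

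Bcl6, a transcriptional repressor whose sites resemble those of STAT5, showed the largest fall among the named genes. It was at 0.271, 2.5045 and 7.54 CPM after GMCSF and at 4.99, 43.8 and 76.6 CPM without it. The lowest untreated cultures reached into the treated range, and the log2 fold change was -3.36 ± 0.45 (adjusted p = 1.55e-06). The GMCSF edge well (0.325 CPM) lay below the 6 untreated edge wells of its plate and pool (7.26 to 66.7 CPM). The 6 GMCSF middle wells (0.271 to 7.54 CPM) lay below the 10 untreated middle wells (36.5 to 63.2 CPM).

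**Figure D1:**
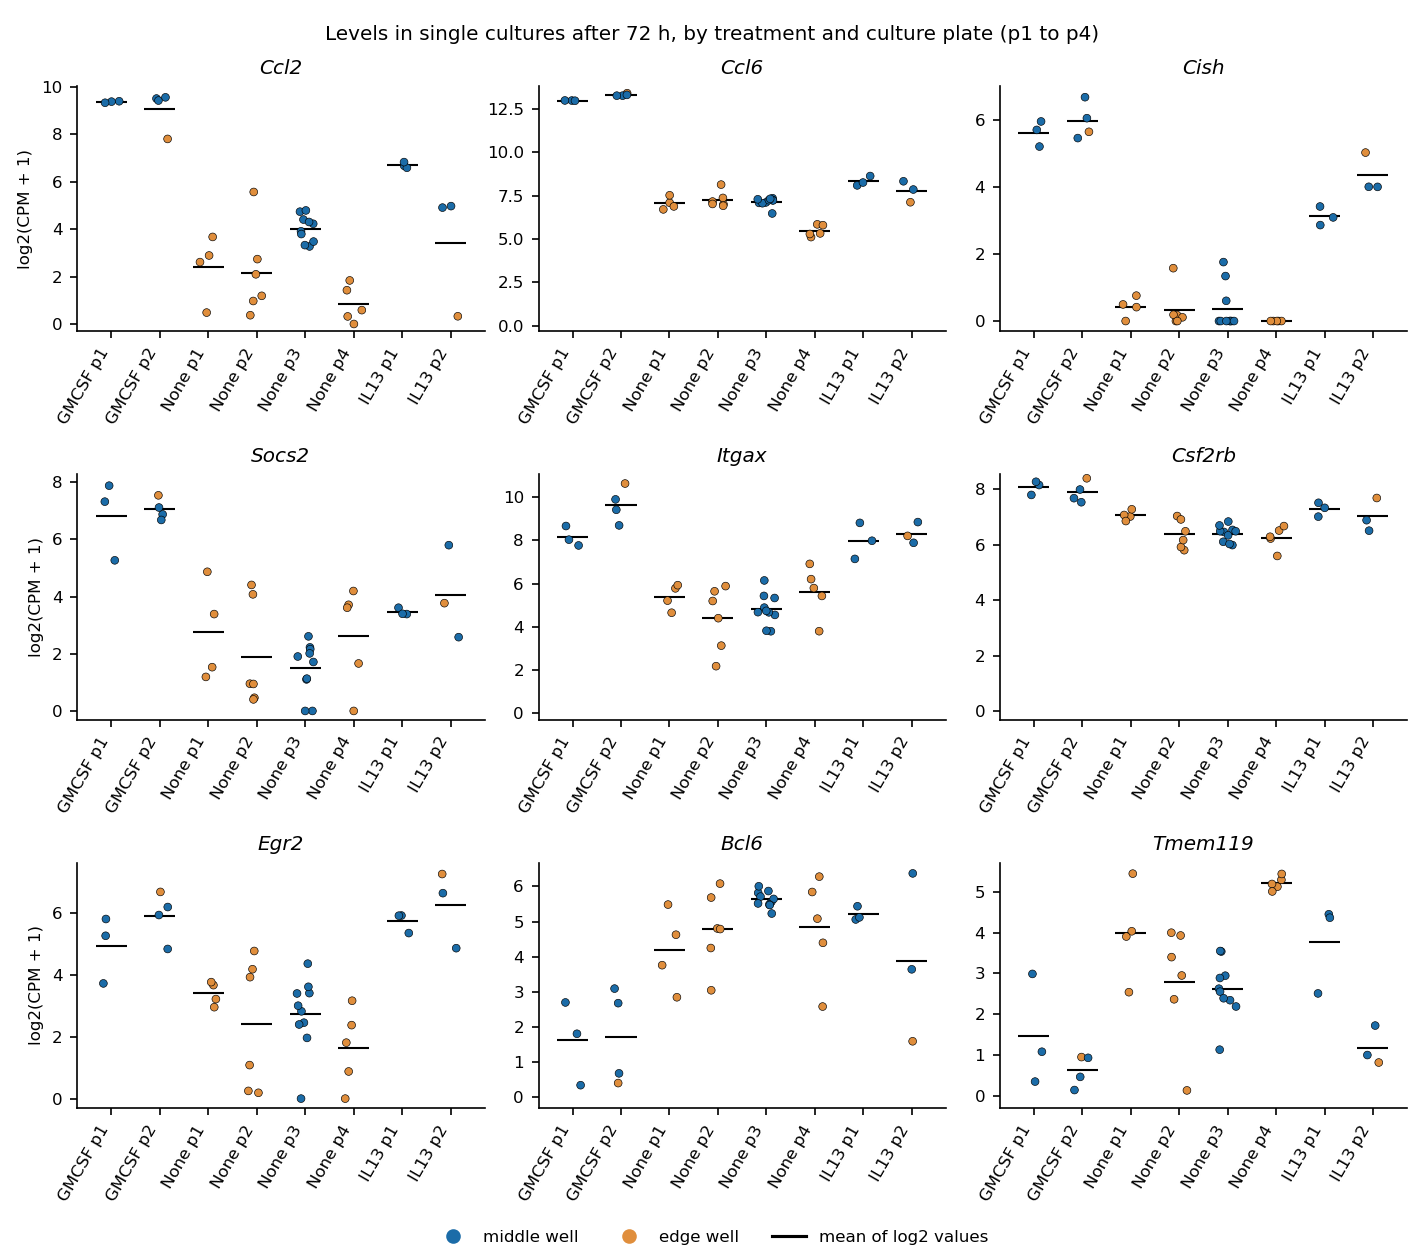
Levels of 9 genes in each 72 h culture, as log2(CPM + 1), by treatment and plate (p1 to p4), with middle and edge wells in different colours and a bar at the mean. Ccl2, Ccl6, Cish, Socs2, Itgax and Csf2rb lie higher in all 7 GMCSF cultures than in all 25 untreated cultures, and Bcl6 and Tmem119 lie mostly lower.

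STAT5 binds the palindrome TTCNNNGAA, which is its own reverse complement, so 1 strand was searched in the RefSeq promoters (250 bases before to 50 after a start, build GRCm38.p6). Of all 32851 such windows 8.30% hold a match, as do 6.63% of the windows of genes tested here, 6.08% for the genes that rose and 7.28% for those that fell. Of the 8 STAT5 list members called, 7 had windows, and 4 of their 11 windows held a match, at Cish, Socs3 and Bcl6. These 3 genes are printed as all the called list members with a match. Cish and Socs3 rose and Bcl6 fell. Each sequence reads 5′ to 3′ on the strand of the gene, with the matches in capitals. For Cish (chr9:107296619-107296688, plus strand) the first match begins at the annotated start and the second 11 bases after it. The Socs3 window (chr11:117969411-117969560, minus strand) and the Bcl6 windows at a pair of annotated starts (chr16:23988861-23989010 and chr16:23981342-23981491, both minus strand) lie before their starts.
Cish: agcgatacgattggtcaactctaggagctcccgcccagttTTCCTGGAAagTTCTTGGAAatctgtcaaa
Socs3: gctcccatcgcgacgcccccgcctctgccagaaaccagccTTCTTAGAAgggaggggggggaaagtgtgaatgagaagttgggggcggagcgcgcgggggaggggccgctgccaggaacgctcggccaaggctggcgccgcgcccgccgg
Bcl6, first window: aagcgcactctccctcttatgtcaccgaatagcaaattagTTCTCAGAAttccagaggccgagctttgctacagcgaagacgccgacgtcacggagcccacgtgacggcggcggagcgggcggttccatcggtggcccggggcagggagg
Bcl6, second window: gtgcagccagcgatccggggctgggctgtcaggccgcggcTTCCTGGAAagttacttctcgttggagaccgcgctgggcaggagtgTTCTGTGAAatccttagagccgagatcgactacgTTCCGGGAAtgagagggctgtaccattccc
Binding at these positions was not measured here.

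Chemokines were among the largest rises. Of 22 inflammatory cytokines and chemokines tested, 8 rose (Ccl2, Ccl6, Ccl7, Ccl12, Il1rn, Ccl9, Il1a and Tgfb1) and 1 fell (Cxcl16), with a median log2 fold change of 0.64. Ccl2, the main attractant of monocytes, was at 221, 667 and 748 CPM after GMCSF and at 0, 6.39 and 46.2 CPM without it (6.51 ± 0.60, adjusted p = 5.40e-10). Its lowest treated value was that of the edge well, and the 6 middle wells lay between 638 and 748 CPM. Ccl6, a chemokine of macrophages, reached 7952, 9729 and 10738 CPM against 33.5, 134 and 279 CPM (6.33 ± 0.28, adjusted p = 1.18e-19), and here the edge well was the highest of the 7. Ccr1, a receptor for several chemokines of this family, was at 56.7, 72.6 and 84.1 CPM against 0, 0.747 and 11.4 CPM (5.17 ± 0.44). For these 3 genes the groups did not overlap.

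Ccl7 and Ccl12, which attract monocytes as Ccl2 does, rose by 5.53 ± 0.61 and 4.54 ± 0.51 on the log2 scale. For both, the edge well was within the range of the untreated edge wells: 25.9 CPM against 0.0797 to 45.1 CPM for Ccl7, and 2.32 CPM against 0 to 4.75 CPM for Ccl12. In middle wells Ccl7 was at 187 to 312 CPM after GMCSF and 2.38 to 19.1 CPM without it. Ccl12 in middle wells was at 26.4 to 106 CPM against 0 to 18.1 CPM.

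Those of the Ccl genes that rose lie near each other on chromosome 11 in RefSeq, but not every gene of that stretch did. In the order Ccl2, Ccl7, Ccl11, Ccl12, Ccl8, Ccl1, Ccl2, Ccl7 and Ccl12 rose, Ccl8 was near 0 in both groups (medians 0.232 and 0.594 CPM, adjusted p = 0.88), and Ccl11 and Ccl1 were too low to test. In the order Ccl5, Ccl9, Ccl6, Ccl3, Ccl4, Ccl9 and Ccl6 rose, Ccl9 by 2.61 ± 0.35 from a median of 68.4 to 356 CPM. Ccl3 and Ccl4, attractants of T cells and macrophages, did not pass the test (1.69, adjusted p = 0.057, and 1.71, adjusted p = 0.11). Ccl5 measured a median of 56.4 CPM after GMCSF and 199.6 CPM without it (-0.87, adjusted p = 0.51). Tnf (-0.34, adjusted p = 0.83) and Il1b (-0.93, adjusted p = 0.28), the leading inflammatory cytokines, did not pass either.

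The other large rises belonged to genes of varied roles. Asb18, which codes for an ankyrin-repeat protein with a SOCS box, was at 65.4, 141 and 173 CPM against 0, 0.402 and 4.19 CPM (6.24 ± 0.36, adjusted p = 4.38e-16), so the groups lay far apart. Eps8, a regulator of actin and growth factor signalling, was at 41.8 to 92.9 CPM against 0 to 9.64 CPM (4.79 ± 0.45). Acy1, an enzyme that removes acetyl groups from amino acids (4.21 ± 0.35), Naaa, which breaks down lipid amides (4.02 ± 0.51), and the collagenase Mmp13 (3.82 ± 0.55) also rose without overlap. Across the 14 largest rises (Ccl2, Ccl6, Asb18, Ccl7, Cish, Ccr1, Socs2, Eps8, Ccl12, Acy1, Itgax, Naaa, Mmp13 and Bcl2a1a), all GMCSF middle wells lay above all untreated middle wells for 14 genes. The GMCSF edge well lay above its 6 untreated edge wells for 12, the exceptions being Ccl7 and Ccl12. The 14 genes were chosen for their rise in the same wells, so such separation is partly built in and adds no support.

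The falls were smaller and less even between wells. After Bcl6 came Thbs1, a matrix protein that activates TGF-β, at 0, 1.21 and 12.5 CPM against 0.660, 38.996 and 134 CPM (-3.11 ± 0.72, adjusted p = 0.0048). Its difference was -3.52 on plate 1 and -0.87 on plate 2. The mitochondrial ribosomal RNA mt-Rnr1 was at 33.4, 115 and 318 CPM against 14.2, 1525 and 5437 CPM (-3.09 ± 0.75, adjusted p = 0.0086), with a difference of -2.73 on plate 2. On plate 1 the difference was -0.68 and rested on untreated replicate 14 (4072 CPM), since the other 3 untreated wells there were at 14.2 to 60.9 CPM and the GMCSF wells at 33.4 to 115 CPM. Without that culture, left out after its value was seen, the plate 1 difference was 1.04, the opposite sign. Pla2g7, which inactivates platelet-activating factor, was at 12.1, 24.7 and 93.6 CPM against 54.4, 247 and 759 CPM (-2.77 ± 0.46, adjusted p = 8.36e-05), and differed by -3.38 and -3.46 on the plates.

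The remaining 8 of the 12 largest falls were Zfp729a, Cdk5r1, Cmtm8, Enc1, Ms4a14, Fcrl1, Mgst2 and Gsta3, with log2 fold changes from -2.43 to -2.63. Enc1, an actin-binding protein, was the highest of them, at 4.23 to 30.8 CPM against 7.58 to 120.03 CPM. Mgst2 and Gsta3 belong to glutathione metabolism. The edge well lay below its untreated edge wells for 7 of the 12 genes and the middle wells below the untreated middle wells for 9. The 12 genes were chosen for their fall in the same wells, so these counts add no support. Leaving out 1 GMCSF culture ended 4 of these calls: Cdk5r1 at -2.38 (adjusted p = 0.074) without replicate 6, Gsta3 at -2.39 (adjusted p = 0.060) without replicate 7, Mgst2 at -2.19 (adjusted p = 0.070) without replicate 5 and Zfp729a at -2.43 (adjusted p = 0.057) without replicate 3. With plate and well position as terms, Mgst2 (-1.54, adjusted p = 0.22) and Zfp729a (-2.12, adjusted p = 0.21) did not pass; Zfp729a also belongs to a family of near-identical zinc finger genes.

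**Figure D2:**
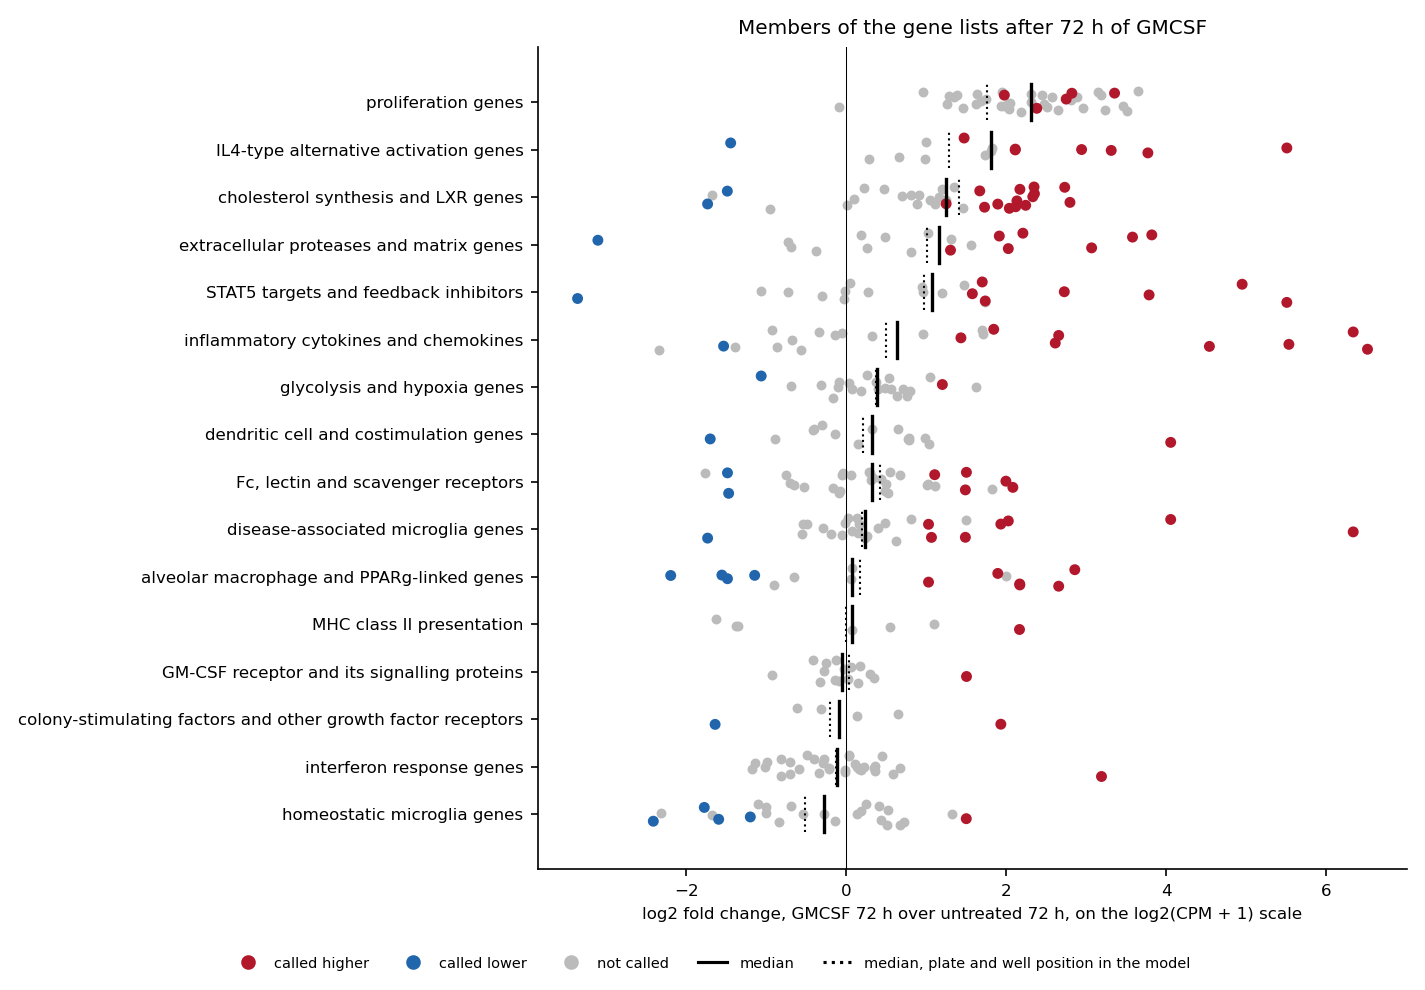
Log2 fold changes (GMCSF over untreated, 72 h) of the tested members of 16 gene lists, 1 point a gene, red where higher and blue where lower past the test. A solid bar marks the median of each list (2.31 for proliferation genes, 1.24 for cholesterol synthesis and LXR genes, -0.28 for homeostatic microglia genes) and a dotted bar the median with plate and well position as terms.

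Genes of sterol and fatty acid synthesis were among those that rose. Of 33 cholesterol synthesis and LXR genes tested, 14 rose and 2 fell, with a median log2 fold change of 1.24, and with plate and well position as terms 16 of 35 rose and 1 fell. Those that rose run along the pathway: Acat2, Mvk, Mvd, Fdps, Fdft1, Sqle, Lss, Cyp51 and Dhcr7 are enzymes of cholesterol synthesis. Mvd was at 11.3, 27.8 and 51.0 CPM against 0, 3.91 and 13.8 CPM (2.73 ± 0.55, adjusted p = 0.0012). Mvk was at 22.0, 36.5 and 51.9 CPM against 0, 9.19 and 19.6 CPM (2.35 ± 0.55, adjusted p = 0.0051). The 7 GMCSF cultures all lay above the untreated ones for Mvk, though with plate and well position as terms its adjusted p was 0.074 (1.88), and for Mvd 5 of 7 did.

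Stard4, which moves cholesterol within the cell, rose by 2.12 ± 0.55. Scd2 and Fasn, of fatty acid synthesis, rose by 2.79 ± 0.50 and 2.17 ± 0.42. Hmgcs1, an early enzyme of the pathway, did not pass the test (1.11, adjusted p = 0.34). Abcg1, which exports cholesterol, was at 134 to 264 CPM against 14.3 to 106 CPM (1.89 ± 0.26, adjusted p = 2.10e-06) and the groups did not overlap. The 2 that fell were Mylip, a ubiquitin ligase induced by LXR (-1.49 ± 0.26; -0.72 and not called with plate and well position as terms), and Apoe. Apoe, the main lipid carrier made by microglia, was at 6773, 9283 and 14648 CPM after GMCSF and at 14925, 36372 and 56911 CPM without it. Every treated culture lay below every untreated one (-1.74 ± 0.28, adjusted p = 5.10e-05), and the differences on the plates were -2.16 and -2.31.

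Apoe is also one of the 27 tested genes of disease-associated microglia, a state described around plaques in the ageing brain. Of this list 7 rose (Ccl6, Itgax, Spp1, Csf1, Clec7a, Lgals3 and Fabp5) and Apoe fell, with a median log2 fold change of 0.23. Itgax, the integrin CD11c, was at 217, 414 and 1593 CPM against 3.51, 35.6 and 119.6 CPM (4.05 ± 0.42, adjusted p = 1.08e-08). The highest of the 7 was the edge well and there was no overlap. Spp1, osteopontin, was at 1228, 2469 and 9250 CPM against 363, 513 and 1038 CPM (2.02 ± 0.25, adjusted p = 2.54e-07), also without overlap. Clec7a, the receptor dectin-1, was at 716, 1209 and 2044 CPM against 115, 478 and 604 CPM (1.49 ± 0.25, adjusted p = 1.06e-04). Lgals3, galectin-3, rose by 1.06 ± 0.13, and no culture overlapped for these genes. Trem2, the lipid receptor on which that state depends, was at 373 to 592 CPM against 473 to 939 CPM (-0.54 ± 0.14, adjusted p = 0.010), below the 2-fold minimum.

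Of 25 homeostatic microglia genes, 1 rose (Selplg) and 4 fell, among them Tmem119, Fcrls and Olfml3, with a median of -0.28. Of all genes tested, 2.68% rose and 1.45% fell. With plate and well position as terms 2 of 26 rose and 7 fell, against 2.65% and 0.904% of all genes. Tmem119, a marker of microglia, was low in these cultures, at 0.101, 0.905 and 6.94 CPM against 0.0941, 9.57 and 42.8 CPM (-2.41 ± 0.55, adjusted p = 0.0038). Fcrls measured -1.78 ± 0.53 (adjusted p = 0.040), and -1.496 (adjusted p = 0.14) without GMCSF replicate 6. Olfml3 measured -1.60 ± 0.40, and -1.31 (adjusted p = 0.063) without the same culture. P2ry12, a receptor for nucleotides, was at 0.0929 to 11.2 CPM against 0 to 7.93 CPM (0.43, adjusted p = 0.72).

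Cx3cr1, the fractalkine receptor, did not pass the main test (-2.31 ± 0.80, adjusted p = 0.086). Its untreated level was higher in middle wells than in edge wells. The untreated middle wells were all on plate 3, so well position and plate cannot be told apart there. GMCSF middle wells were at 2.73, 10.6 and 49.0 CPM and untreated middle wells at 119.7, 197 and 265 CPM, with no overlap. The edge well was at 4.56 CPM and its untreated edge wells at 7.33, 39.7 and 60.9 CPM. With plate and well position as terms the log2 fold change was -3.71 (adjusted p = 4.77e-07).

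Itgax was the single gene to rise among 15 tested dendritic cell and costimulation genes, and Cd83 fell (-1.70 ± 0.32), against 2.68% and 1.45% of all genes. Zbtb46, a transcription factor of dendritic cells, measured 0 to 16.8 CPM against 0 to 23.5 CPM (0.32, adjusted p = 0.84), and Flt3, the receptor of a dendritic cell growth factor, was too low to test, with at most 0.707 CPM after GMCSF. Among 7 MHC class II genes tested, 1 rose, against 2.68% of all genes: H2-DMa, which loads peptides, measured 2.16 ± 0.66 (adjusted p = 0.044). This call was lost in 14 of the fits that left out 1 culture, with the highest adjusted p, 0.13, without GMCSF replicate 5 (1.90), and with plate and well position as terms it did not pass (2.07, adjusted p = 0.13). H2-Ab1, a chain of the presenting molecule, was at 0, 0 and 4.17 CPM after GMCSF and at 0, 3.74 and 20.7 CPM without it (-1.36, adjusted p = 0.23), and against untreated middle wells only it was lower (-2.94, past the test). Cd74, its invariant chain, was at 0.0465, 2.77 and 13.6 CPM against 0, 0.247 and 6.996 CPM and fell below the filter of the main fit; with plate and well position as terms it measured 1.28 (adjusted p = 0.013).

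Of 15 alveolar macrophage and PPARγ-linked genes tested, 6 rose (Atp6v0d2, Il1rn, Fabp4, F7, Abcg1 and Fabp5) and 4 fell (Angptl4, Acot1, Cd36 and Plin2). Atp6v0d2, a proton pump subunit of macrophages, was at 342, 511 and 669 CPM against 17.6, 75.4 and 135 CPM without overlap (2.85 ± 0.29, adjusted p = 5.28e-09). Cd36, which takes up fatty acids, was at 216, 362 and 2094 CPM against 527, 1087 and 3259 CPM (-1.49 ± 0.36, adjusted p = 0.0074), and Plin2, which coats lipid droplets, fell by 1.15 ± 0.19. Fabp4, a fatty acid binding protein, measured 2.17 ± 0.58 (adjusted p = 0.018), and 2.06 (adjusted p = 0.053) without GMCSF replicate 5. Pparg itself measured 33.03, 76.0 and 153 CPM against 0, 28.1 and 76.4 CPM, which did not pass (1.99 ± 0.68, adjusted p = 0.079).

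Of 18 extracellular protease and matrix genes, 7 rose (Mmp13, Fn1, Mmp8, Plaur, Spp1, Mmp12 and Plau) and Thbs1 fell, with a median of 1.16. Mmp12, macrophage elastase, was at 1120, 1273 and 2597 CPM against 179, 312 and 961 CPM (1.91 ± 0.29, adjusted p = 1.37e-05). Fn1, fibronectin, was at 28.4, 61.2 and 121 CPM against 0.250, 3.71 and 26.3 CPM (3.58 ± 0.50). The groups did not overlap for either. Among 32 Fc, lectin and scavenger receptors 5 rose (Fcgr2b, Msr1, Itgam, Clec7a and Fcgr1) and 2 fell (Cd36 and Clec4d). Msr1, a scavenger receptor, was at 982, 1178 and 1570 CPM against 134, 339 and 462 CPM (1.99 ± 0.17, adjusted p = 1.22e-10). Fcgr2b, the inhibitory IgG receptor, was at 519, 1215 and 1821 CPM against 91.5, 329 and 582 CPM (2.08 ± 0.33), and its lowest treated value was the edge well.

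Of 32 interferon response genes tested 1 rose, against 2.68% of all genes, the guanylate-binding protein Gbp7 (3.18 ± 0.59), and the median was -0.12. Of 22 glycolysis and hypoxia genes tested, 1 rose and 1 fell, against 2.68% and 1.45% of all genes. The enzyme Eno1 was higher (1.20 ± 0.30), but did not pass with plate alone or pool alone as a term. On plate 1 it was at 598 to 741 CPM with GMCSF and at 430 to 589 CPM without. The mitophagy gene Bnip3 was lower. Bnip3 measured -1.07 ± 0.31 (adjusted p = 0.031), -0.83 (adjusted p = 0.14) without GMCSF replicate 5 and -0.43 (adjusted p = 0.78) with plate and well position as terms. Of 6 colony-stimulating factors and other growth factor receptors tested, the growth factor Csf1 rose (1.93 ± 0.40, from a median of 0 to 3.896 CPM; below the filter, and so without a call, in 4 of the 32 fits that left out 1 culture) and the receptor Csf3r fell (-1.64 ± 0.42).

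The 39 proliferation genes tested show how far well position goes. In the main fit 5 rose (Ccnb1, Hmmr, Kif11, Ccne1 and Aurka), none fell, 38 were above 0 and the median log2 fold change was 2.31. With plate alone as a term 37 rose, against 9.05% of all genes, and none fell, against 2.5% of all genes. With plate and well position as terms 14 of 40 rose, against 2.65% of all genes, with a median of 1.75. Against untreated middle wells only, 1 of 39 rose, with a median of 0.12, beside 342 of all 10077 genes tested. Ccnb1, the cyclin of mitosis, was at 69.7 to 205 CPM in GMCSF middle wells and 35.2 to 63.7 CPM in untreated middle wells. In edge wells it was at 5.30 CPM with GMCSF and at 0 to 2.99 CPM without. Its overall log2 fold change of 3.35 ± 0.91 (adjusted p = 0.020) became 3.09 (adjusted p = 0.066) without GMCSF replicate 5. Hmmr (2.60, adjusted p = 0.067, without replicate 5) and Kif11 (2.54, adjusted p = 0.064, without replicate 3) lost their calls as well. With plate and well position as terms Ccne1 did not pass (1.496, adjusted p = 0.15).

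The summed level of the 39 genes lay higher with GMCSF at the same kind of well, by less than the step between edge and middle. Untreated edge wells summed to 931 to 2028 CPM and untreated middle wells to 4005 to 5016 CPM. GMCSF middle wells summed to 5337 to 5683 CPM on plate 1 and to 5852 to 6199 CPM on plate 2, all above the untreated middle wells of plate 3. The GMCSF edge well summed to 2372 CPM, above the 6 untreated edge wells of the same plate and pool (1462 to 2028 CPM). IL13 gave 5995 to 7186 CPM in middle wells and 1088 CPM in its edge well. Since untreated middle wells were on a plate of their own, plate and treatment cannot be told apart for the middle wells.

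**Figure D3:**
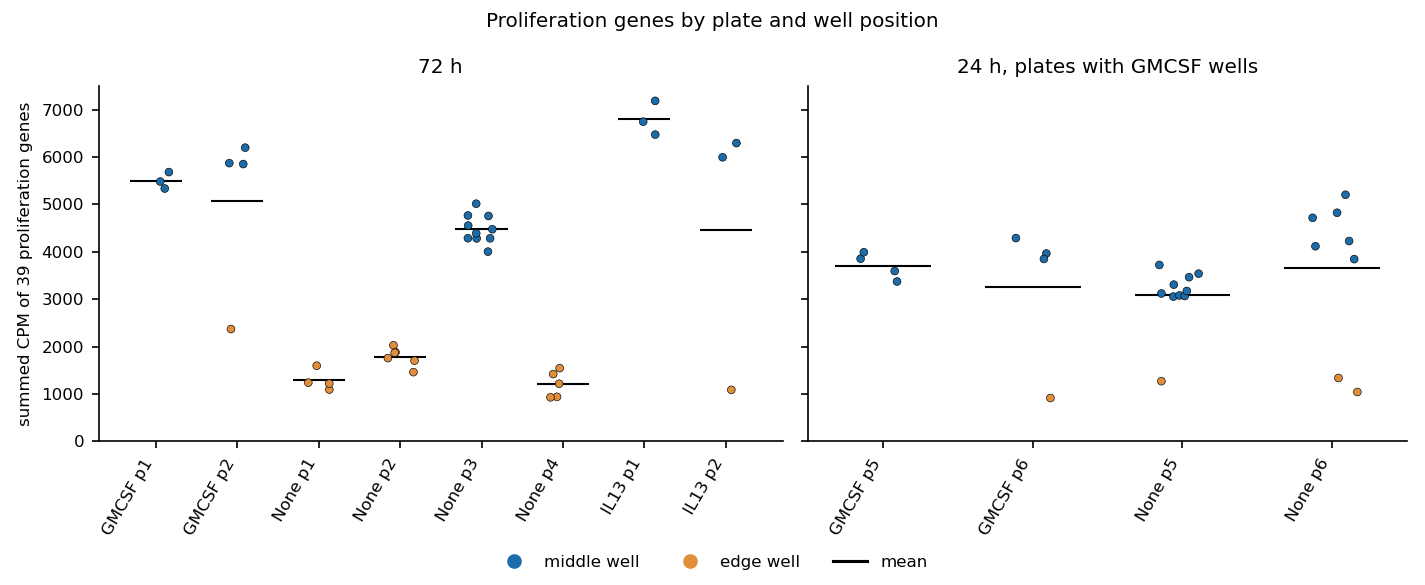
Summed CPM of 39 proliferation genes in each culture by treatment and plate, at 72 h (left) and on the plates with GMCSF wells at 24 h (right), with middle and edge wells in different colours and a bar at the mean. Edge wells sit low in every group (916 to 2372 CPM) and GMCSF middle wells at 72 h sit at 5337 to 6199 CPM.

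At 24 h, 137 of 12325 genes were higher with GMCSF (1.11%) and 249 lower (2.02%), together 3.13%, against the 40 untreated cultures of that time. With plate as a term, a fit added after the data were seen, 177 were higher and 209 lower. The effect at 72 h differed from that at 24 h, by the interaction of treatment and time, for 126 genes (1.02%), of which 99 were higher (0.803%) and 27 lower (0.219%) at 72 h. Untreated wells were mostly edge wells at 72 h and mostly middle wells at 24 h. GMCSF wells were mostly middle wells at both times. No fit of the difference in time had a term for well position, so these differences are not separated from it. Core genes of the response were already high at 24 h. Cish stood at 11.5, 24.0 and 57.7 CPM then, against 0, 0 and 1.93 CPM (4.51 at 24 h; difference 1.00, adjusted p = 0.14). Socs2 had a log2 fold change of 5.01 at 24 h (difference -0.06 ± 0.66) and Csf2rb 1.49 (difference 0.01 ± 0.30). Bcl6 was already down by 2.84 (difference -0.52 ± 0.48). Ccl6 was called at both times and grew, from 4.71 to 6.33 (difference 1.62 ± 0.34, adjusted p = 0.0048).

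Itgax changed the most clearly between the times. At 24 h it was at 100.2, 205 and 390 CPM with GMCSF and at 14.8, 286 and 703 CPM without, so the groups lay over each other (-0.20 ± 0.44, adjusted p = 0.86). By 72 h the untreated median was 35.6 CPM and the treated one 414 CPM, and the difference of the effects was 4.26 ± 0.65 (adjusted p = 3.70e-05). Between the times the untreated median was lower at 72 h and the treated one higher. Other genes with a more positive effect at 72 h than at 24 h were Cbr2, a carbonyl reductase (difference 5.40), the cell cycle gene Cdca3 (4.31), Adamtsl5 of the matrix (4.10) and Cd109 (4.01). Of these, Cbr2 was lower with GMCSF at 24 h (-2.33, adjusted p = 0.021). Cdca3 and Cd109 did not pass at 72 h itself (2.78, adjusted p = 0.097, and 2.76, adjusted p = 0.081), but did with plate and well position as terms (2.47, adjusted p = 0.0083, and 2.95, adjusted p = 0.024). Against untreated middle wells only, neither passed at 72 h (-0.27, adjusted p = 0.71, and 0.47, adjusted p = 0.25). Nor did Cbr2 (1.10, adjusted p = 0.21), whereas Adamtsl5 did (3.11, adjusted p = 6.60e-06). A more negative effect at 72 h was found for the acute-phase gene Saa3 (-4.24), the iron-binding Lcn2 (-3.76), Thbs1 (-3.52), the nitric oxide synthase Nos2 (-3.38) and the histone-binding Rbbp4 (-2.97). With GMCSF at 72 h, Saa3 was at 99.3 to 126 CPM on plate 1, where untreated wells were at 22.7 to 134 CPM. In middle wells of plate 2 it was at 0.202 to 1.76 CPM with GMCSF and at 0 and 0.383 CPM with IL13. Lcn2 was at 15.3 to 31.2 CPM with GMCSF and 3.36 to 47.5 CPM without on plate 1. In middle wells of plate 2 it was at 0 with either cytokine. Plate 2 had no untreated middle wells, and the part of plate and position in these levels was not tested. At 72 h itself Rbbp4 measured -2.08 (adjusted p = 0.040), -1.88 (adjusted p = 0.096) without GMCSF replicate 4 and -1.33 (adjusted p = 0.23) with plate and well position as terms. Nos2 was at 6.35, 16.4 and 52.1 CPM with GMCSF at 24 h and at no more than 0.289 CPM at 72 h. Untreated wells at 72 h were at 7.77 to 13.8 CPM on plate 3 and at no more than 1.38 CPM on the other plates. The lower Nos2 level with GMCSF at 72 h thus rests on plate 3, which had no GMCSF wells.

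Sterol genes were among those that differed in time. Of 34 cholesterol synthesis and LXR genes, 2 rose at 24 h, against 1.11% of all genes, with a median log2 fold change of -0.21. A more positive effect at 72 h was found for 9, against 0.803% of all genes, and a more negative one for none. For Mvd the values were -0.13 at 24 h and 2.73 at 72 h (difference 2.86 ± 0.68, adjusted p = 0.016), and for Scd2 0.05 and 2.79 (difference 2.74 ± 0.62, adjusted p = 0.010). The 24 h cultures came from several lots, and only 4 GMCSF and 8 untreated cultures at 24 h shared the lot of the 72 h cultures. Within that lot 1 gene passed for the difference by limma, Gpx3, a secreted glutathione peroxidase (2.23, adjusted p = 0.0015), and none was lower at 72 h, while 1171 of 11275 genes had an unadjusted p below 0.05. Itgax then measured 2.39 (adjusted p = 0.17), Mvd 3.08 (adjusted p = 0.22) and Cbr2 5.16 (adjusted p = 0.11). Of the 126 genes called for a difference, 122 were tested within the lot, and all 122 had the same sign there. The fit within the lot used the same 72 h cultures and part of the same 24 h cultures, so this is no independent check.

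**Figure D4:**
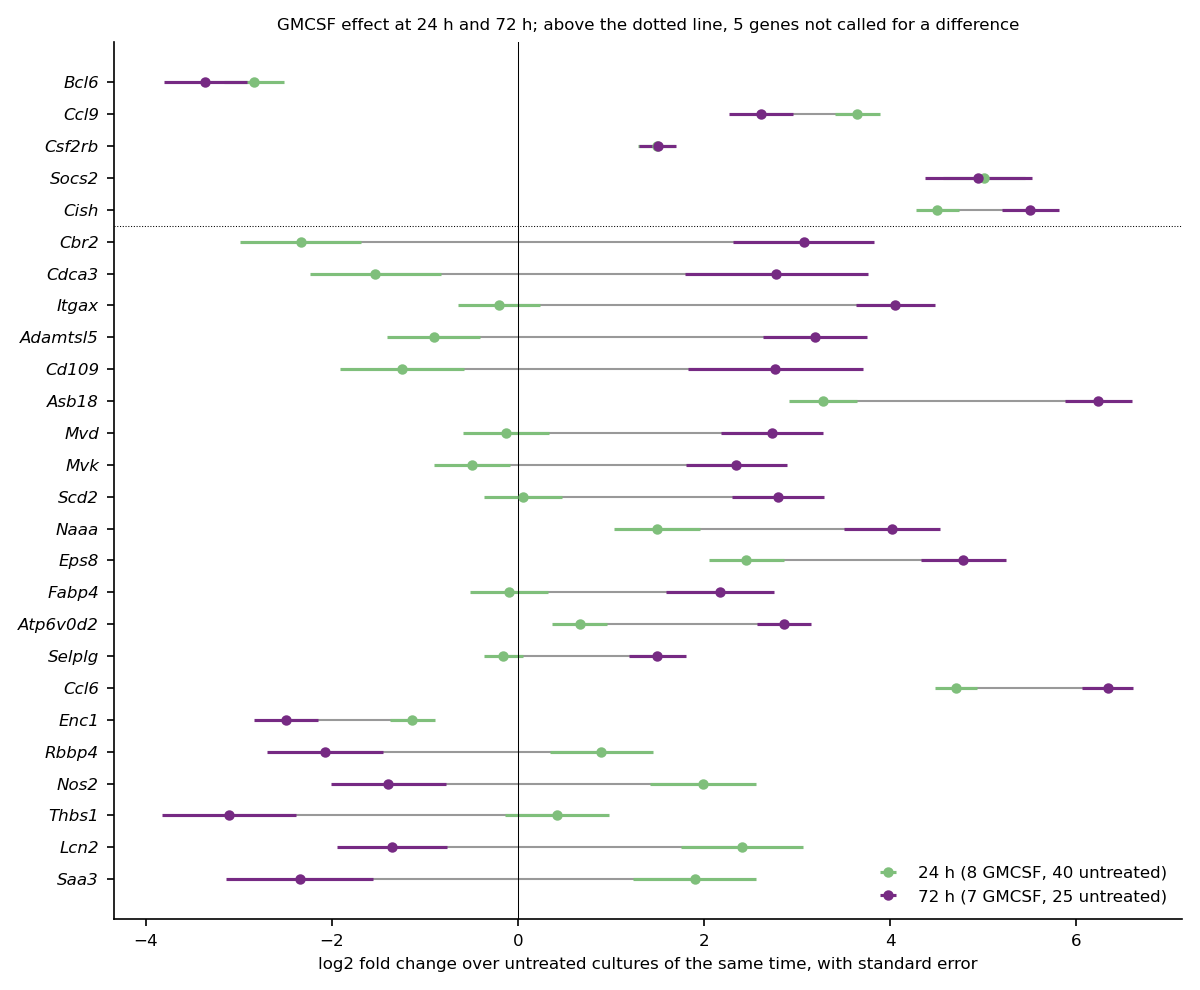
Log2 fold change of GMCSF over untreated cultures at 24 h and at 72 h, with standard errors, for named genes whose effect differed between the times and, above the dotted line, 5 genes that were not called for a difference. Itgax moves from -0.20 to 4.05 and Mvd from -0.13 to 2.73, whereas Socs2 and Csf2rb stay at 5.01 and 4.95 and at 1.49 and 1.4998.

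IL13, a cytokine that acts through STAT6, was on the same plates, with 5 middle wells and 1 edge well. Of 11241 genes, 77 were higher with GMCSF than with IL13 (0.685%) and 48 lower (0.427%). The genes highest over IL13 were Asb18 (5.43 ± 0.53), Ccl6 (5.11 ± 0.36), the neutrophil collagenase Mmp8 (4.19 ± 0.84), Ccl2 (4.15 ± 0.87) and Eps8 (3.88 ± 0.60). Ccl6 was at 138, 287 and 393 CPM with IL13, far below the GMCSF cultures. The genes lowest against IL13 were Retnla, a secreted marker of alternative activation (-7.01 ± 0.90), the arginase Arg1 (-5.37 ± 0.77), the tight junction gene Cldn11 (-4.93 ± 0.62), the ribonuclease Rnase2a (-4.81 ± 0.70) and the membrane gene Tmem26 (-4.47 ± 0.72). Retnla was at 99.6, 1283 and 1673 CPM with IL13 and at 0, 5.73 and 16.8 CPM with GMCSF. Arg1 was at 291, 945 and 1028 CPM with IL13 and at 3.32, 19.2 and 56.2 CPM with GMCSF.

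Against untreated cultures, 7 of the 15 tested IL4-type alternative activation genes rose with GMCSF (Cish, Ch25h, Klf4, Egr2, Arg1, Clec10a and Il4ra) and Tgm2 fell, with a median of 1.81. Arg1 in this comparison was small beside IL13, at 2.11 ± 0.63 (adjusted p = 0.037); it was 1.85 (adjusted p = 0.12) without GMCSF replicate 3 and 1.28 (adjusted p = 0.10) with plate and well position as terms. Egr2, a transcription factor of this program, was at 12.2, 54.5 and 101 CPM against 0, 6.73 and 26.2 CPM (2.94 ± 0.56), and Klf4, another, was at 15.97, 20.9 and 44.7 CPM against 0, 1.46 and 15.2 CPM (3.31 ± 0.45). The direct difference of GMCSF from IL13 was -0.50 ± 0.70 for Egr2 (adjusted p = 0.87) and 0.87 ± 0.53 for Itgax (adjusted p = 0.57). Socs2 (3.20 ± 0.73) and Cish (2.08 ± 0.41) were higher with GMCSF, and Bcl6 was lower (-2.86 ± 0.64).

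The largest rises and falls were also ranked among the 26 conditions of 72 h given 1 stimulus or none. They were chosen on the same GMCSF cultures, so an extreme rank is partly built in. GMCSF had the highest mean log2 level for 12 of its 14 largest rises. The exceptions were Itgax, for which IL4 alone was higher, and Bcl2a1a, at rank 3. For Ccl6 the 3 IL4 cultures came next, at 555 to 661 CPM, far below the 7952 CPM of the lowest GMCSF culture. For Ccl2 the 13 cultures with the higher dose of LPS came next, at 36.4 to 425 CPM, which overlapped with the GMCSF edge well only. For Cish the IL4 cultures were at 27.2 to 58.3 CPM and those of GMCSF at 35.6 to 100.4 CPM, and the ranges overlapped; the order of the pair is not firm. GMCSF had the lowest mean for 4 of its 12 largest falls, Bcl6, Zfp729a, Cdk5r1 and Fcrl1, and for Tmem119.

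**Figure D5:**
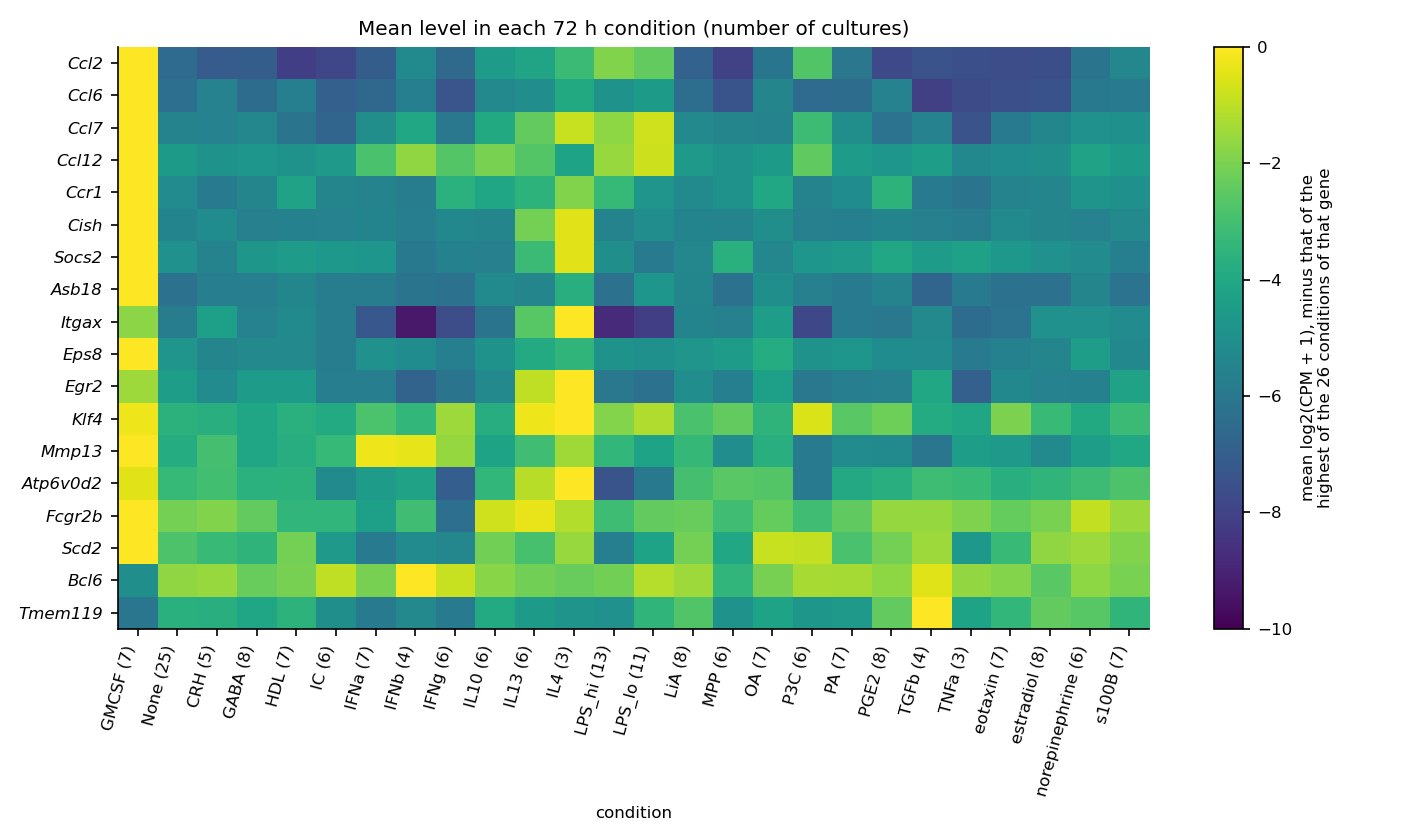
Mean log2(CPM + 1) of 18 genes in each of the 26 conditions of 72 h, as the difference from the highest condition of that gene (0, yellow), with the number of cultures in parentheses. The GMCSF column is at 0 for genes such as Ccl2, Ccl6, Cish, Socs2 and Asb18, IL4 is the nearest for Cish and Socs2 and the highest for Itgax, and the GMCSF column is the darkest for Bcl6 and Tmem119.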

How the data were processed

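Gene levels were deposited as CPM. The methods call the unit TPM, but per that description the authors quantified reads per transcript, summed them per gene and divided by all mapped reads, without a length correction, and removed cultures with few reads or genes. The submitters' processing notes name Salmon 0.7.1 and the build mm8, whereas the methods name an Ensembl build, so no gene coordinates are given apart from the RefSeq promoter windows. Well position, plate and pool come from the file headers, and what is called the lot is their Source ID. Of the values worth at most 20 reads in a culture, 70.1 to 89.0% were whole multiples of 1 read within 0.1 read, so reads were not recovered and no count test was run. Of 784 culture columns, 239 were used (all 72 h single stimuli, 24 h GMCSF and untreated) and 545 were not.

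Values were tested as log2(CPM + 1) with limma 3.58.1 in R 4.3.3 (trend and robust variance, Benjamini-Hochberg adjustment) on genes above 5 CPM in at least 4 of the cultures fitted. A gene was called at an adjusted p below 0.05 and at least 2-fold. The main comparison fitted GMCSF and untreated 72 h cultures without covariates; the time comparison was an interaction term, and IL13 was compared directly. The fit was tested on simulated data. Python 3.11.15, numpy 2.4.6, pandas 2.3.3 and scipy 1.17.1 did the rest. Depth was taken as the scaling total over the commonest value above 0 of a culture.

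Named genes were the 14 largest rises and 12 largest falls with at least 10 CPM in the higher group and the same direction on both plates, up to 4 called members of each of 16 gene lists, the defining receptor, STAT5, microglia and dendritic cell genes, and the 5 largest called differences each way in time and against IL13. Gene models and clone names were passed over. Other list members given with values, and genes at the 2 chemokine stretches, were chosen after their values were seen. The cultures and lists were chosen with earlier results of these data known. Alternatives changed the covariates, the untreated cultures used, pseudocount, filter, scaling, spread, test, minimum fold and the cultures left in.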

Additional observations from a re-analysis of the deposited data

Results flagged for a closer look

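On the log2(CPM + 1) scale, 1 culture lay far from the rest in 18 of 104 groups checked (GMCSF at 72 h for each named gene, and 24 h or IL13 cultures for genes named there). Chance flags about 1 in 20 groups of independent, normally spread values, which genes of the same cultures are not. The single GMCSF edge well at 72 h (replicate 4) was the far, and lowest, culture for 10 genes: Cbr2 (0 CPM; others 25.045 to 124), Ccl12 (2.32; 26.4 to 106), Ccl2 (221; 638 to 748), Ccl7 (25.9; 187 to 312), Ccnb1 (5.30; 69.7 to 205), Cdca3 (2.32; 37.01 to 143), Ch25h (10.7; 33.9 to 77.3), Fcgr2b (519; 1185 to 1821), Hmmr (0.639; 25.8 to 65.8) and Retnla (0; 4.15 to 16.8). On CPM itself, a scale added after seeing the data, this well was far below the rest for 1 gene, Ccl2, and far above it for 4, Spp1 (9250 CPM; 1228 to 2952), Itgam (883; 162 to 422), Pla2g7 (93.6; 12.1 to 43.1) and Mgst2 (20.998; 0 to 4.92). The single IL13 edge well was the far culture for Arg1 (291 CPM; others 874 to 1028), Ccl2 (0.253; 28.9 to 112) and Retnla (99.6; 911 to 1673). The remaining far cultures were GMCSF replicate 5 at 72 h for Csf2rb2 (200.4 CPM; others 50.1 to 87.4) and Il1rn (40.4; 11.2 to 17.2), GMCSF replicate 1 at 72 h for Nos2 (0.289; others 0) and Tmem119 (6.94; 0.101 to 1.11), and GMCSF replicate 3 at 24 h for Thbs1 (61.5; 11.6 to 23.7).

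For 21 named genes the effect of GMCSF differed between 72 h and 24 h by the interaction term. That term takes no account of well position, and edge wells were a larger part of the untreated cultures at 72 h. It was more positive at 72 h on the log2 scale for Cbr2 (5.40), Cdca3 (4.31), Itgax (4.26), Adamtsl5 (4.10), Cd109 (4.01), Asb18 (2.96), Mvd (2.86), Mvk (2.84), Scd2 (2.74), Naaa (2.53), Eps8 (2.34), Fabp4 (2.27), Atp6v0d2 (2.19), Selplg (1.66) and Ccl6 (1.62). It was more negative at 72 h for Saa3 (-4.24), Lcn2 (-3.76), Thbs1 (-3.52), Nos2 (-3.38), Rbbp4 (-2.97) and Enc1 (-1.36). All 21 kept their sign within the lot shared by both times, for example Cdca3 (5.61), Cd109 (4.73), Selplg (1.75), Rbbp4 (-4.20), Itgax (2.39) and Atp6v0d2 (0.73). The fit within the lot used the same 72 h cultures and part of the same 24 h cultures, so shared signs are no independent check. None passed the test there, where the lowest adjusted p was 0.11 and 4 GMCSF and 8 untreated cultures at 24 h were left.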

How the results depend on the processing

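Against 292 genes higher and 158 lower after 72 h of GMCSF, plate as a term gave 987 and 273, untreated wells of the GMCSF plates only gave 666 higher, and untreated middle wells only gave 1141 lower. Chosen after seeing the data, pool and well position as terms gave 104 lower, plate 1 alone 120 and 61, plate 2 alone 444 higher, and the edge wells of 1 plate and pool (1 GMCSF, assumed to vary like the others) 8 and 14; there Olfml3 reversed to 0.13. Leaving out 1 culture gave 219 to 314 higher and 130 to 191 lower. Other pseudocounts, filters, scalings, spread and test kept both counts within 1.5 times.

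For the difference in time (99 and 27), plate as a term gave 790 and 159, no filter 59 and 13, the shared lot (chosen after seeing the data) 1 and 0, and leaving out 1 culture 59 to 126 and 11 to 29. Against IL13 (77 and 48), plate gave 153 and 125, pool 145 and 121, and leaving out 1 culture 46 to 84 and 27 to 58.

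Of 65 named genes called, 50 kept the call in every fit without 1 culture; the most were lost with pool as a term (18), plate 1 alone (29) and the edge wells (33). No paired analysis was possible because the labels carry no replicate numbers; plate and pool as terms are given above.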
